A study of Mus musculus with 16 samples.

Results

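Methylation of DNA in induced pluripotent stem cells (iPSC, 2 libraries) was compared with that in the mouse embryonic fibroblasts from which the reprogramming began (D0, 2 libraries), at the autosomal CpG sites that were read at least 10 times in each of these 4 libraries. These are 4 of the 16 libraries of a chemical reprogramming course that also sampled days 2, 4, 6, 8, 10 and 12. Per the labels' protocols, feeder cells supported the iPSCs in a serum-free medium with LIF and the inhibitors CHIR99021 and PD0325901. Whether feeders were removed before lysis was not given in the sources used here. The D0 cells were fibroblasts (MEF) in serum medium. Both groups carry the strain label 129XOG2 and come from E13.5 embryos. OG2 mice hold a transgene in which Pou5f1 genomic sequence drives green fluorescent protein. The source field reads MEF for iPSC and D0 libraries alike, and the groups were taken from the cell type field and the titles. The labels do not say that replicates were separate cultures or embryos, so a p-value here speaks of the spread among these libraries, which may be technical.

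In mammals, methylation sits mainly on the cytosine of CpG, where DNMT1, brought to replicated DNA by UHRF1, copies it to the daughter strand, DNMT3A and DNMT3B write it anew, and TET enzymes oxidise it on the way to removal. CpG-rich stretches at gene starts are mostly free of it. A known exception in somatic cells is the set of CpG-rich promoters of germline genes, which are methylated and silent there, while the pluripotency genes Pou5f1 and Zfp42 are methylated in fibroblasts and unmethylated in embryonic stem cells. Reduced representation bisulfite sequencing reads short MspI fragments, so CpG-rich places are over-represented.

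Promoter sequences on which the results turn are given first, each as the 250 bases before a RefSeq start, 5′ to 3′ on the strand of the gene. Capitals mark the CpGs that were measured in all 4 libraries. The sequences come from RefSeq on GRCm38.p6 and were set on the coordinates of the deposited sites (GRCm39) by their pattern of CpGs. Ddx4 (chr13:112788845-112789094, minus strand), Slc25a31 (chr3:40663051-40663300, plus strand) and Rpl10l (chr12:66331176-66331425, minus strand) are germline genes whose promoter tiles were lower in iPSCs. The start of the imprinted RNA gene Meg3 (chr12:109506629-109506878, plus strand) was lower too. The start of Ltbp1 (chr17:75485526-75485775, plus strand) had the largest gain among promoters.
Ddx4: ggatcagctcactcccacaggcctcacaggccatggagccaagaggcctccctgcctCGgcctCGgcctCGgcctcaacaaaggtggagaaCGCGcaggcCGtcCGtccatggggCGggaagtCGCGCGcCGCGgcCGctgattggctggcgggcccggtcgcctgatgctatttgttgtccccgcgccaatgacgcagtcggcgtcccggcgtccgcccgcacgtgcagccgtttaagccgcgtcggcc
Slc25a31: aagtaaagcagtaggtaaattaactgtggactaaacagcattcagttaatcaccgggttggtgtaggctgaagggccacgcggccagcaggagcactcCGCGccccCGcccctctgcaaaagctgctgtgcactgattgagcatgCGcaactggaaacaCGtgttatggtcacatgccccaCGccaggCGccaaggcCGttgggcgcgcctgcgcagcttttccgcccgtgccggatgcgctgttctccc
Rpl10l: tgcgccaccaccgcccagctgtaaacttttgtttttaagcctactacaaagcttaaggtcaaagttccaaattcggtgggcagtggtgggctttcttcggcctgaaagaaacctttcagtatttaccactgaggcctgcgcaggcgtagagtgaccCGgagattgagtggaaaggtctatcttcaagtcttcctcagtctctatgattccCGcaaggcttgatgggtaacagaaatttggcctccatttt
Meg3: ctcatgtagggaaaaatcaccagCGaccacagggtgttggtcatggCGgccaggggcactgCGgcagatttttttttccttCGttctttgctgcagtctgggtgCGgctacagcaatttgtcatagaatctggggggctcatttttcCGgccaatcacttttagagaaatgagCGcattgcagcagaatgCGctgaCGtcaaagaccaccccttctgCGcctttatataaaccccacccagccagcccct
Ltbp1: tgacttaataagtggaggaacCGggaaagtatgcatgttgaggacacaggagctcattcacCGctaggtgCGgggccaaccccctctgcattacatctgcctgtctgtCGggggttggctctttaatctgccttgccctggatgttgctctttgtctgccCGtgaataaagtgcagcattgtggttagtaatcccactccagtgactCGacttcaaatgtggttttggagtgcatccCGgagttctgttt
In the Ddx4 sequence, each of the 14 measured CpGs was lower in both iPSC libraries than in either D0 library. In the Ltbp1 sequence, each of the 7 CpGs was higher in both iPSC libraries, and the one nearest to the start, 13 bases before it, had 37.3% and 50.0% in iPSC libraries, against 7.27% and 7.32% in D0 libraries.

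Over the 1230658 common sites, which are 47.9% of the sites listed in any of the 4 libraries, the mean level was 50.1% and 50.0% in iPSC libraries and 53.0% and 53.2% in D0 libraries. The iPSC mean was 50.1% ± 0.0740 and the D0 mean 53.1% ± 0.108 (SD, n = 2 each), a difference of -3.00 points (SE 0.0925). Both iPSC libraries lay under both D0 libraries. In an exact permutation test (two-sided) p was 0.333, and 2 libraries against 2 cannot give a smaller one. Sites at 80% or more made up 35.5% ± 0.0350 of the sites in iPSCs and 40.2% ± 0.0546 in D0 cells (SD, n = 2 each). Sites with no methylated read made up 13.8% and 13.4% in iPSC libraries, against 7.68% and 10.3% in D0 libraries, which differ in depth. At single sites, 2215 were at 20% or less in both iPSC libraries and at 80% or more in both D0 libraries, and 797 went the other way. Switches of that size between replicates occurred at 269 and 282 sites within iPSCs and at 65 and 74 sites within D0 cells, counted in either direction.

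Reads were summed in tiles of 1 kb with at least 3 common sites, which gave 124598 tiles with a median of 256 reads per tile and library. A tile was called at an adjusted p under 0.05 in edgeR's quasi-likelihood test with Benjamini-Hochberg adjustment and a difference of at least 10 points. Lower in iPSCs were 12003 tiles (9.63% of those tested), and higher were 6533 (5.24%). The median difference over all tiles was -1.71 points. The tiles called lower averaged 42.2% ± 0.0207 in iPSCs and 71.6% ± 0.147 in D0 cells, and the tiles called higher averaged 66.5% ± 0.106 in iPSCs and 38.2% ± 0.0592 in D0 cells (SD of the library means, n = 2 each). Losses of at least 50 points numbered 1192 and gains of that size 406. Without D0 replicate 1, and likewise without D0 replicate 2, 0 tiles passed the adjusted threshold in edgeR, which then judges D0 by a single library and takes the spread from the iPSC pair. At an unadjusted p under 0.05 and 10 points, 15549 and 15553 tiles were then lower and 8967 and 9265 higher, against 18914 lower and 11268 higher with all 4 libraries. Without iPSC replicate 1 the adjusted calls were 7283 lower and 2959 higher, and without iPSC replicate 2 they were 7202 lower and 3040 higher.

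**Figure D1:**
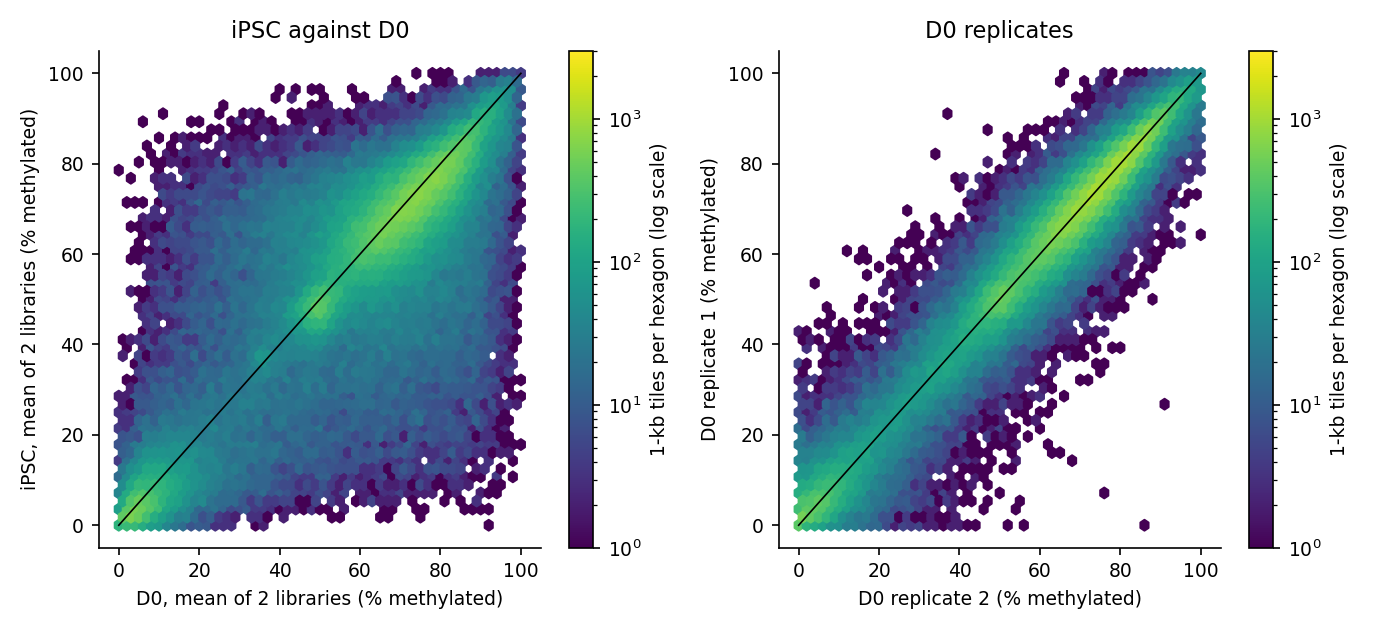
Level of each 1-kb tile (% methylated), as iPSC mean against D0 mean on the left and as D0 replicate 1 against D0 replicate 2 on the right; colour is the number of tiles per hexagon on a log scale and the line marks equal levels. The 12003 tiles called lower and the 6533 called higher lie off the line on the left, and the D0 replicates (Pearson r 0.971 over tiles) keep closer to it.

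Most tiles kept their broad level. Of the tiles under 20% in D0 cells, 87.9% were under 20% in iPSCs as well. Of the tiles over 80% in D0 cells, 47.9% stayed over 80%, 51.3% were between 20% and 80% in iPSCs, and 188 tiles (0.785%) were under 20%. In the opposite corner, 35 tiles were over 80% in iPSCs and under 20% in D0 cells. The iPSC culture held feeder cells, whose share of the DNA was not measured. Of the 3548 tiles at 90% or more in both D0 libraries, 1036 were called lower, 2 were at 10% or less in both iPSC libraries, and 1 of these had no methylated read in either. The part of feeder DNA in these levels was not tested.

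Losses and gains sat in tiles of different CpG content. The number of distinct CpGs listed per tile in any of the 16 libraries served as the measure, since no genome sequence of the build was used. Tiles with 1 to 4 CpGs were lower in 4.79% of cases. The share was 10.3% at 5 to 9 CpGs, 15.7% at 10 to 19 and 15.4% at 20 to 39, and it was 6.08% at 40 or more. Gains were 4.54%, 6.63%, 5.28%, 2.13% and 1.06% of the same classes in the same order. The richest tiles were low in both groups, with means of 9.26% and 8.94% in iPSC libraries and 11.9% and 12.2% in D0 libraries. Among tiles at 60% or more in D0 cells, the share called lower was 5.93%, 11.7%, 20.8%, 42.2% and 82.1% from the poorest class to the richest, the last being 46 of 56 tiles. Among tiles at 40% or less in D0 cells, the share called higher was 26.1%, 24.8%, 9.65%, 2.35% and 1.11%. Reads per tile and library had a median of 166 in the poorest class and 833 in the richest, and the part of depth in these shares was not tested.

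The mean levels, which need no call, ran the same way. In tiles with 1 to 4 CpGs the means were 60.4% and 60.2% in iPSC libraries, against 61.0% and 61.2% in D0 libraries. In tiles with 20 to 39 CpGs they were 24.9% and 24.5% in iPSC libraries, against 30.3% and 30.5% in D0 libraries. Choosing tiles by their D0 level and then comparing with the same D0 libraries favours movement away from that level. Tiles were therefore also chosen by D0 replicate 1 alone and read in the other libraries. Those at 60% or more with 1 to 4 CpGs then had 68.5% in both iPSC libraries, against 72.1% in D0 replicate 2. Those with 40 or more CpGs had 42.5% and 44.3% in iPSC libraries, against 81.7% in D0 replicate 2. Tiles at 40% or less in D0 replicate 1 with 1 to 4 CpGs had 37.0% and 36.1% in iPSC libraries, against 27.1% in D0 replicate 2, while those with 20 to 39 CpGs had 9.54% and 9.22%, against 10.8%.

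**Figure D2:**
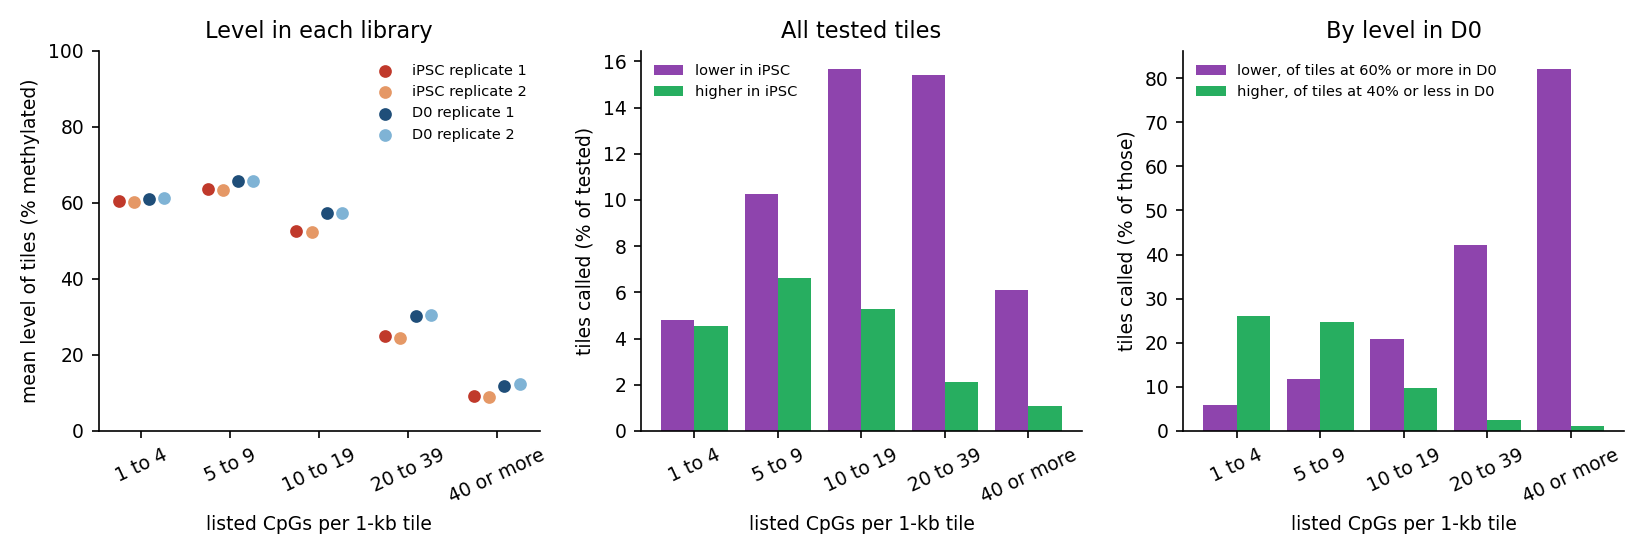
Tiles by listed CpGs per 1 kb: mean level in each of the iPSC and D0 libraries (left, points), share of tested tiles called lower or higher in iPSCs (middle, bars), and the same shares among tiles at 60% or more or 40% or less in D0 cells (right, bars). Among tiles high in D0 cells the share that was lower climbs to 82.1% in the richest class, and among tiles low in D0 cells the share that was higher falls to 1.11%.

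Distance to the nearest CpG-rich tile, defined by at least 20 listed CpGs, served as another measure. CpG-rich tiles themselves were lower in 13.6% of cases, tiles next to one in 14.0%, tiles 2 away in 14.6%, tiles 3 to 5 away in 13.0%, tiles 6 to 10 away in 13.4%, tiles 11 to 50 away in 10.8% and tiles over 50 away in 7.03%. Gains made up 1.92% of CpG-rich tiles, 3.36% of the tiles next to one and 6.29% of those over 50 tiles away. Among tiles at 60% or more in D0 cells, 43.2% of CpG-rich tiles, 29.4% of their neighbours, 17.9% at 2 tiles and 8.93% at over 50 tiles were lower. Among tiles at 40% or less in D0 cells, 2.05% of CpG-rich tiles, 4.45% of their neighbours and 28.6% of the tiles over 50 away were higher. Over all tiles the share lower thus kept within 13.0% to 14.6% up to 10 tiles and was smaller beyond. Among tiles with 5 to 9 CpGs, 16.2% were lower next to a CpG-rich tile and 8.32% over 50 tiles away, and 3.63% and 7.70% were higher. With 1 to 4 CpGs, the shares lower were 13.4% and 2.94%, and the shares higher, which differed less, 3.66% and 4.91%. Next to CpG-rich tiles, the mean level was 30.2% and 29.9% in iPSC libraries and 35.1% and 35.2% in D0 libraries. Over 50 tiles away it was 63.6% and 63.5% in iPSC libraries and 64.2% and 64.4% in D0 libraries, a difference of -5.12 points next to CpG-rich tiles and of -0.788 points far from them. The contrast rests on where the line for CpG-rich is set: with 40 CpGs, 10.4% of neighbours and 9.05% of far tiles were lower, and with 10 CpGs, 5.01% of neighbours and 5.66% of far tiles were higher.

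**Figure D3:**
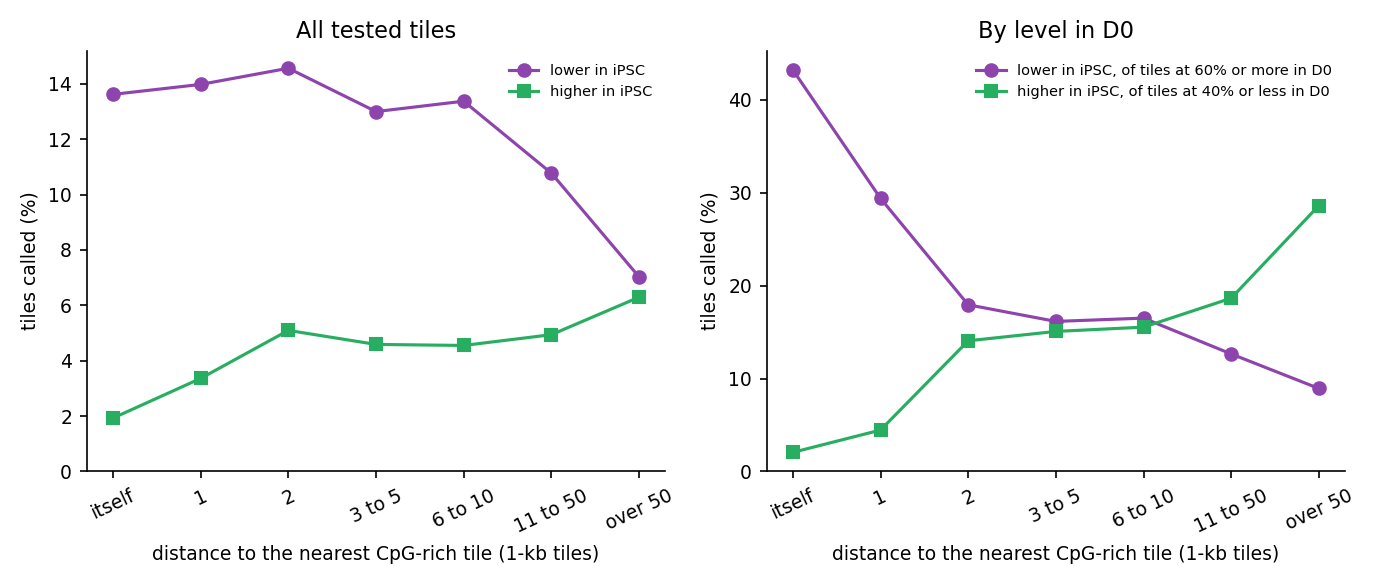
Share of 1-kb tiles called lower or higher in iPSCs relative to D0 cells by distance to the nearest tile with at least 20 listed CpGs, for all tested tiles (left) and for tiles at 60% or more or 40% or less in D0 cells (right). Losses fall from 43.2% to 8.93% and gains climb from 2.05% to 28.6% with distance in the right plot.

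Called tiles lay near others of their kind. A tile 1 kb from a lower tile was itself lower in 43.6% of pairs, against 9.63% of all tiles, and a tile 1 kb from a higher tile was higher in 33.5%, against 5.24%. Adjacent tiles can share reads. At a distance of 2 kb, which leaves a whole tile in between, 23.2% were lower near a lower tile and 10.96% higher near a higher tile. At 51 to 100 kb the shares were 14.0% and 8.39%, and beyond that, up to 500 kb, they were 12.2% and 6.64%. Opposite calls were rarer there than among all tiles: 0.910% of tiles 1 kb from a lower tile were higher, and 2.08% of tiles 1 kb from a higher tile were lower.

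**Figure D4:**
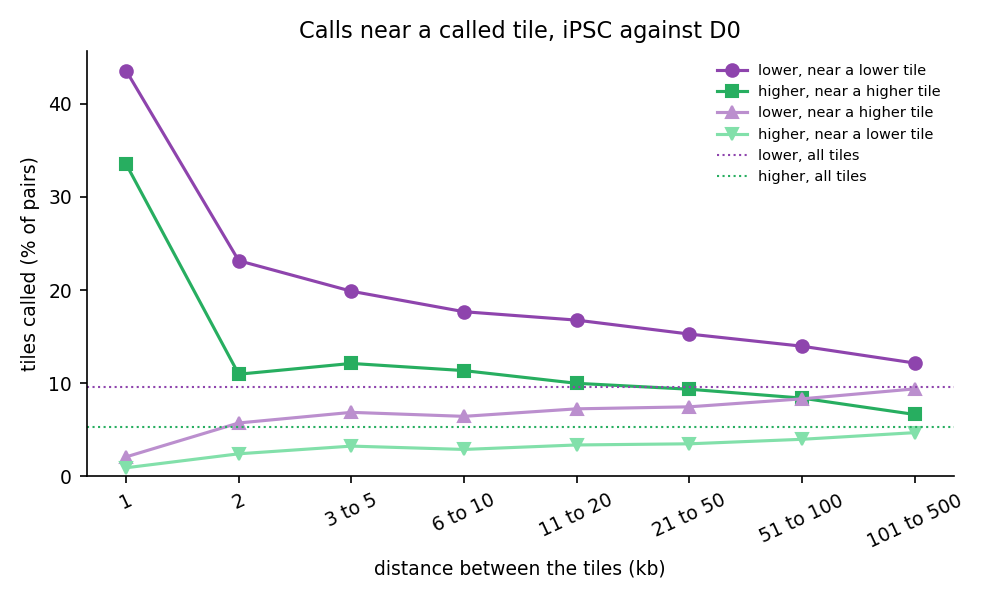
Share of tiles called lower or higher in iPSCs relative to D0 cells at a given distance (kb) from a called tile; dotted lines give the shares among all tiles, 9.63% and 5.24%. Like calls start at 43.6% and 33.5% at 1 kb and approach the dotted lines with distance, and opposite calls start under them.

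Of the 22352 bins of 100 kb that could be fitted, 2887 (12.9%) were lower and 1214 (5.43%) higher in iPSCs on summed reads, by the same edgeR rule. These counts were 2637 to 2972 lower and 1082 to 1247 higher without any 1 of the 4 libraries. Among the 3899 bins with at least 10 tested tiles, 45 had a loss in at least 50% of their tiles and 7 a gain. At least 3 losses were found in 1015 bins, at least 3 gains in 278, and both in 15.

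The 5 bins with most losses were 2 on chromosome 18 (chr18:37800001-37900000 with 19 of 30 tiles lower, and chr18:38700001-38800000 with 14 of 24), 1 on chromosome 17, 1 on chromosome 8 and 1 on chromosome 6. The chromosome 17 bin (chr17:35800001-35900000) held placed starts of Pou5f1, which encodes the pluripotency factor OCT4, and of its neighbours Tcf19 and Cchcr1, and 12 of its 19 tiles were lower. The mean of its tiles was 39.5% in both iPSC libraries, against 63.3% and 63.7% in D0 libraries, and the bin on summed reads differed by -26.3 points. Its tiles had up to 332 reads per site and library, against a median of 34.7 over all tested tiles, and reads of the OG2 transgene and of the native gene cannot be told apart there. In the 9 tiles with over 100 reads per site, a line chosen after seeing the data, 6 were lower, with means of 37.3% and 38.4% in iPSC libraries, against 61.3% and 61.2% in D0 libraries. In the other 10 tiles, 6 were lower, with 41.5% and 40.6% in iPSC libraries, against 65.1% and 66.1% in D0 libraries. Depth does not mark which tiles hold transgene sequence, so the part of the transgene in these levels was not tested. The difference reached -66.6 points in a tile at chr17:35866001-35867000, with 18.1% and 28.8% in iPSC libraries, against 89.2% and 90.8% in D0 libraries. The chromosome 6 bin (chr6:122600001-122700000) had 11 of 14 tiles lower, with a mean of 36.3% and 36.1% in iPSC libraries, against 58.8% and 59.0% in D0 libraries. It lies between the placed starts of Iqsec3 and Pex5. The RefSeq order between these genes holds 36 protein-coding genes, among them the pluripotency gene Nanog and its neighbours Dppa3 and Gdf3, and which of them lie in the bin was not resolved. The chromosome 8 bin (chr8:121200001-121300000, 12 of 30 tiles lower) held the placed start of 1700016A09Rik. The tile of that start was lower, with 10.5% and 3.46% in iPSC libraries, against 27.8% and 33.6% in D0 libraries. The nearest placed starts outside the bin have 3 protein-coding genes between them in RefSeq order: Cibar2, Gse1 and Gins2.

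The 5 bins with most gains had 8 or 9 higher tiles each. The bin at chr2:165000001-165100000, with the start of the cadherin gene Cdh22, had 9 of 19 tiles higher and a mean level of 52.6% and 54.4% in iPSC libraries, against 40.1% and 40.3% in D0 libraries. At chr5:119900001-120000000, 9 of 19 tiles were higher, with 44.6% and 42.1% in iPSC libraries and 21.9% and 24.2% in D0 libraries. Its flanking placed starts belong to Tbx3os2 and Rita1, and the limb and heart regulator Tbx5 is among the 9 protein-coding genes between them. At chr4:154500001-154600000, 9 of 20 tiles were higher, with 73.1% and 72.7% in iPSC libraries and 55.3% and 55.4% in D0 libraries. Between its flanking starts, of Arhgef16 and Gm13133, the RefSeq order has 1 protein-coding gene, Prdm16, a transcriptional regulator of brown fat. At chr5:139500001-139600000, with the start of the homeobox gene Uncx, 9 of 23 tiles were higher, but the summed reads differed by 8.05 points and the bin was not called. At chr8:121600001-121700000, between the starts of Irf8 and the long non-coding RNA gene Fendrr, 8 of 21 tiles were higher, with 68.2% and 68.4% in iPSC libraries and 49.6% and 49.4% in D0 libraries.

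RefSeq promoter sequences could be placed on the deposited sites for 6159 genes, and the 1-kb tile holding the start was tested for 4499 of them, in 4132 tiles. Their mean level was low in both groups, 11.4% ± 0.124 in iPSCs and 13.6% ± 0.0613 in D0 cells (SD, n = 2 each). Promoter tiles were lower in 225 cases (5.45%) and higher in 70 (1.69%). As with all tiles, 0 promoter tiles passed the adjusted threshold in edgeR without D0 replicate 1 or without D0 replicate 2, where 397 and 378 were lower and 154 and 139 higher at an unadjusted p under 0.05 and 10 points. Of the 210 promoter tiles at 60% or more in D0 cells, 78 (37.1%) were lower. The placement favours promoters rich in listed CpGs, so these shares are not those of all promoters. Among the promoters named below, those of Rpl10l, Zfp42, Pou5f1, Tdgf1, Sox2, Esrrb, Grb10, Cldn7, Ltbp1, Ccrl2, Gm33861, Gm33934 and Gm32965 were placed between placed neighbours on 6 or 7 matching CpGs, a weaker rule than that of the others.

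The largest loss at a promoter tile belonged to a pair of genes. Rad51c, a recombination protein, and Tex14, needed for the bridges between germ cells, share the tile chr11:87295001-87296000, which had 24.2% and 8.39% in iPSC libraries, against 92.0% and 97.5% in D0 libraries, over 4 sites with 95 to 188 reads. The difference was -78.5 points (SE 8.37, edgeR adjusted p = 0.0117). Rpl10l, a testis-expressed copy of a ribosomal protein gene, had 30.1% and 12.1% in iPSC libraries, against 93.1% and 91.0% in D0 libraries (adjusted p = 0.00994). Zglp1, a zinc finger regulator of germ cells, had 21.5% and 32.3% in iPSC libraries, against 94.9% and 91.3% in D0 libraries. Meioc, needed to keep meiosis going, had 6.56% and 5.36% in iPSC libraries, against 62.5% and 76.4% in D0 libraries. D1Pas1, a testis RNA helicase, had 27.9% and 30.4% in iPSC libraries, against 84.7% and 87.3% in D0 libraries. The groups did not overlap, as was the case in all 12003 lower and 6533 higher tiles, so this adds nothing to the call. The share of all tested tiles without overlap was not computed. Among the tiles whose levels are given here, the iPSC replicates lay closest together in Meioc and farthest apart in Rpl10l. The rest of the 10 largest losses were 4930522P08Rik, Gm52569, 1700110K17Rik and Prr23a3, with differences between -56.4 and -63.2 points.

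Of the list of 20 germline genes, 5 had a tested promoter tile, 3 were lower and 0 higher, with a median difference of -50.1 points. All 5 were at 60% or more in D0 cells, where 37.1% of promoter tiles were lower. Over all promoter tiles, whose median D0 level was 7.70%, 5.45% were lower, 1.69% higher and the median difference was -1.28 points. This list and those below were chosen with earlier results of these data known, so their counts are no independent support. The germline members called lower were Rpl10l, Slc25a31, an ADP/ATP carrier of the testis, and Ddx4, a germ-cell RNA helicase. Of these, Rpl10l is also among the largest losses given above. Slc25a31 had 39.04% and 36.8% in iPSC libraries, against 89.8% and 86.2% in D0 libraries, a difference of -50.1 points (SE 2.15, adjusted p = 0.00609). Ddx4 had 21.6% and 16.8% in iPSC libraries, against 58.2% and 80.4% in D0 libraries, so that its D0 replicates differed more than its iPSC replicates. Its difference was also -50.1 points (SE 11.4, adjusted p = 0.0293), and without iPSC replicate 1 or 2 it was -52.5 or -47.7 points with adjusted p = 0.0898 or 0.112. Tdrd1 had 64.1% and 51.2% in iPSC libraries, against 67.0% and 65.5% in D0 libraries, and Tex101 69.4% and 65.9%, against 73.1% and 75.5%, and neither passed.

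Of the list of 26 pluripotency genes, 6 had a tested promoter tile, 2 were lower and 0 higher, against 5.45% lower and 1.69% higher over all promoter tiles, with a median of -6.43 points. Zfp42, the gene of the stem cell marker REX1, had 17.9% and 19.9% in iPSC libraries, against 63.4% and 66.0% in D0 libraries, over 24 sites (difference -45.8 points, SE 1.63, adjusted p = 0.00565). Pou5f1 has 2 placed RefSeq starts, and the tile of the downstream one, chr17:35819001-35820000, was tested. It had 22.8% and 23.9% in iPSC libraries, against 44.7% and 45.5% in D0 libraries (difference -21.8 points, SE 0.679, adjusted p = 0.0103). Its 4 sites were read 332 times each per library on average, against a median of 34.7 over all tiles, and 0.214% of tiles had more reads per site. The Pou5f1 sequence of the OG2 transgene and the native gene cannot be told apart in these files, so the level there may be a mean over both. Tdgf1, Fgf4, Sox2 and Esrrb were not called. Esrrb had 25.3% and 28.5% in iPSC libraries, against 10.6% and 17.8% in D0 libraries, with adjusted p = 0.0988. Its difference was 12.7 points at an unadjusted edgeR p of 0.0232, so it was higher by the looser unadjusted rule.

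Meg3, an imprinted RNA gene whose start is methylated on the paternal copy, was the only one of 3 tested members of the imprinted list to be called. Its tile had 7.84% and 13.1% in iPSC libraries, against 51.2% and 51.7% in D0 libraries, over 44 sites with 1199 to 2163 reads (difference -41.0 points, SE 2.63, adjusted p = 0.00797). Both iPSC libraries lay under both D0 libraries. Igf2r had 0% and 10.9% in iPSC libraries, against 21.4% and 24.4% in D0 libraries, and neither it nor Grb10 was called. Uhrf1, whose product brings DNMT1 to replicated DNA, was the 1 tested member of the list of methylation enzymes and their partners, with 18.6% and 16.2% in iPSC libraries and 32.4% and 31.3% in D0 libraries (difference -14.5 points, SE 1.30, adjusted p = 0.0233). Without an iPSC library the adjusted p for Uhrf1 was 0.0534 or 0.0781. Over all promoter tiles 5.45% were lower and 1.69% higher, so a count of 0 in a list of 3 to 5 genes is near the background. No member was called in either direction among 5 tested Hox genes, 4 endoderm and mesoderm regulators, 3 epithelial genes and 5 fibroblast genes in edgeR. The epithelial gene Krt18 had 4.95% and 3.27% in iPSC libraries, against 12.4% and 12.1% in D0 libraries. Its edgeR adjusted p was 0.0187, but its difference of -8.16 points was under the 10-point minimum. At an unadjusted p under 0.05 and 10 points, 1 epithelial gene (Cldn7) and 1 fibroblast gene (Zeb2) were lower and 0 higher, and 0 of the Hox genes and of the endoderm and mesoderm regulators passed in either direction. Over all 124598 tiles this looser rule took 18914 as lower and 11268 as higher. Its share of promoter tiles with all 4 libraries was not computed, so these list counts have no promoter background beside them. Among the fibroblast genes, Col1a2, a fibrillar collagen, had 1.84% and 1.15% in iPSC libraries, against 27.8% and 1.17% in D0 libraries, and Twist2, a mesenchymal regulator, 16.5% and 13.0%, against 7.27% and 8.53%.

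**Figure D5:**
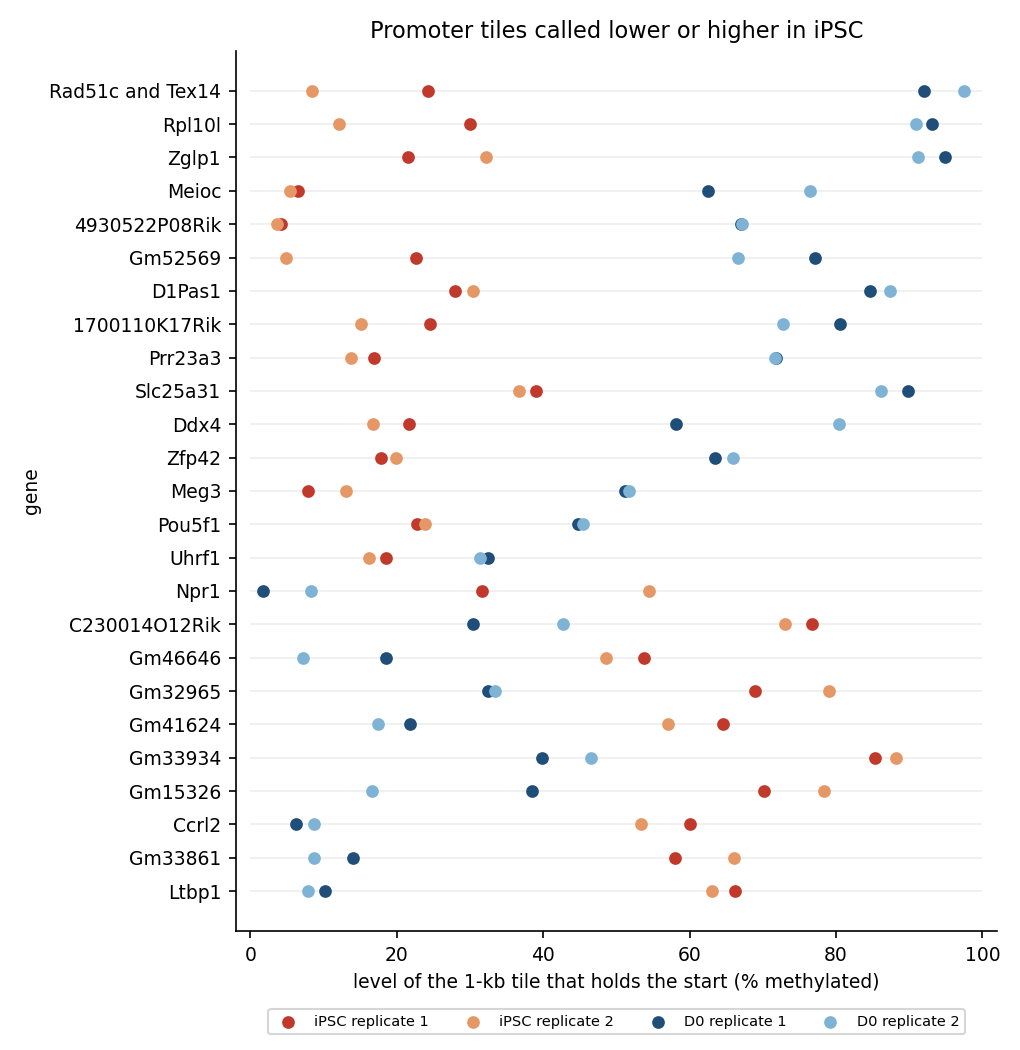
Level (% methylated) of the 1-kb tile holding the start of each gene in the iPSC libraries (red and orange) and D0 libraries (dark and light blue), for the promoters with the largest losses and gains and the called members of the gene lists. Rad51c and Tex14 lead the losses at 24.2% and 8.39% in iPSC libraries, and Ltbp1 leads the gains at 66.2% and 63.1%.

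Gains at promoter tiles were fewer than losses. Ltbp1, which binds latent TGF-beta in the matrix, had 66.2% and 63.1% in iPSC libraries, against 10.1% and 7.89% in D0 libraries (difference 55.7 points, SE 1.94, adjusted p = 0.00565). Ccrl2, a chemokine-binding receptor, had 60.1% and 53.3% in iPSC libraries, against 6.26% and 8.74% in D0 libraries. Npr1, a natriuretic peptide receptor, had 31.6% and 54.5% in iPSC libraries, against 1.74% and 8.33% in D0 libraries, and without an iPSC library its adjusted p was 0.0680 or 0.123. The rest of the 10 largest gains were Gm33861, Gm15326, Gm33934, Gm41624, Gm32965, Gm46646 and C230014O12Rik, between 38.3 and 50.7 points. Of these, Gm15326, Gm46646 and C230014O12Rik were called neither without iPSC replicate 1 nor without iPSC replicate 2.

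Over all tiles, the 10 largest losses among those with at least 100 reads in each library were between -80.6 and -85.2 points. None of these tiles held a placed start, and starts were placed for 6159 of 25748 autosomal genes, so that others may lie in them. The largest was at chr14:39819001-39820000, with 8.63% and 11.2% in iPSC libraries, against 94.5% and 95.8% in D0 libraries. A CpG-rich tile with 62 listed CpGs at chr12:107882001-107883000, 86.7 kb from the placed start of Bcl11b, a zinc finger regulator, had 12.8% and 9.78% in iPSC libraries, against 93.9% and 93.4% in D0 libraries over 39 sites. A tile at chr3:35185001-35186000, 481 kb beyond the placed start of Sox2, had 15.1% and 6.56% in iPSC libraries, against 90.1% and 96.1% in D0 libraries. The 10 largest gains were between 70.8 and 80.3 points, each in a tile with 2 to 8 listed CpGs. The largest, at chr14:67538001-67539000, had 89.7% and 93.1% in iPSC libraries, against 12.3% and 9.92% in D0 libraries. A tile at chr10:120553001-120554000, between the starts of Llph and Msrb3, with the chromatin protein gene Hmga2 as the 1 protein-coding gene between them, had 84.8% and 82.4% in iPSC libraries, against 10.0% and 14.9% in D0 libraries. Of the 3174 tiles at 5% or less in both D0 libraries, 99 were called higher, 5 were at 50% or more and 0 at 80% or more in both iPSC libraries.

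The libraries of the days between had no part in these calls. In the 10639 lower tiles that were read in all groups, the mean level was 71.4% in D0, 68.5% on day 2, 69.6% on day 4, 59.9% on day 6, 43.6% on day 8, 32.9% on day 10 and 21.2% on day 12, and 42.3% in iPSCs. In the 5632 higher tiles it was 38.0% in D0, 34.6% on day 2, 36.4% on day 4, 29.6% on day 6, 23.7% on day 8, 16.5% on day 10 and 14.0% on day 12, and 65.6% in iPSCs. Over all 100049 such tiles it was 58.0% in D0, 55.2% on day 2, 56.7% on day 4 and 48.1% on day 6. It was then 35.6% on day 8, 26.2% on day 10, 18.4% on day 12 and 55.4% in iPSCs. The SD over the 2 libraries was at most 1.20 points in these means. Tiles called higher had their lowest mean on day 12, under that of D0, before the level of the iPSCs. By CpG number, the lower tiles had 15.9% on day 12 and 40.2% in iPSCs with 1 to 4 CpGs, and 23.8% on day 12 and 21.5% in iPSCs with 40 or more CpGs. Meg3 had 53.5% ± 1.05 on day 2, 43.6% ± 2.27 on day 8 and 27.2% ± 0.958 on day 12, and Zfp42 64.0% ± 2.43, 50.4% ± 0.0141 and 13.7% ± 5.51 on the same days (SD, n = 2 each). Ltbp1 had 1.71% in both libraries of day 2, 2.99% ± 1.97 on day 8, and 27.05% and 4.57% in the libraries of day 12.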

How the data were processed

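Libraries were made by reduced representation bisulfite sequencing on an Illumina NovaSeq instrument, per the labels' protocols. Per the submitters' processing notes, fastp 0.20.1, Bismark 0.23.0, Bowtie2 and methylKit were used with GRCm39; end trimming and duplicate handling were not given in the sources used here. The authors deposited 1 CpG table per library, with coverage as a count of reads and methylation as percent of reads, strands apart, and no site under 10 reads. No molecular identifiers are described, so reads are not independent molecules. Methylated reads were recovered as coverage times percent and were whole at all sites. Summed coverage was 47714197 and 52424087 reads in iPSC libraries and 107834007 and 62225124 in D0 libraries, and replicate r over tiles was 0.951 in iPSCs and 0.971 in D0 cells. Mean chi-square per tile was 3.78 and 3.62, so no pair was counted as 1 library.

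Methylated and unmethylated reads per tile or bin were fitted with edgeR 4.0.16 (R 4.3.3): an effect per library, a methylation coefficient per group and a common dispersion from 20000 tiles, with 2 residual degrees of freedom; the script was tested on simulated data. The level of a tile is its methylated share of reads. The planned promoter windows needed an annotation of GRCm39 and were not analysed here. In their place, chosen after seeing the files, 300-base RefSeq promoter sequences (GRCm38.p6) were placed where listed CpGs fell on their CGs: at least 8 matches with a lead of 3 on the whole chromosome, where 99.7% of 5601 kept the RefSeq gene order, then at least 6 with a lead of 2 between placed neighbours. RefSeq gene order gave the genes between 2 placed starts. Named tiles, bins and promoters are those with the largest changes, with at least 100 reads per library for tiles, and the called list members. The members and lists were chosen with earlier results of these data known. Python 3.11.15 and pandas 2.3.3 made the tables. Alternatives were the read minimum, difference, model, block, strand merging, tile shift, site minimum, libraries in the fit, left-out libraries, bin size and CpG class.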

Additional observations from a re-analysis of the deposited data

How the results depend on the processing

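In the alternatives run for each, the global difference, the differences between shares and the differences of named tiles and called promoters did not change sign. For list members that were not called, the sign could change. Without D0 replicate 1, Col1a2 had 1.84% and 1.15% in iPSC libraries, against 1.17% in D0 replicate 2. The 20 named tiles stayed called in each alternative that tested them, other than those without a D0 library, where none of the 20 was called. With a minimum difference of 25 points, 6438 tiles were lower and 3473 higher, and of promoter tiles 85 were lower and 26 higher. With all 16 libraries in 1 fit, 3796 tiles were higher of 92383 tested; with the 4 libraries alone on the same tiles, an alternative chosen after seeing the data, 5153 were. Leaving out 1 library at a time gave 0 to 7283 lower and 0 to 3040 higher tiles, 0 to 172 lower and 0 to 61 higher promoter tiles, with 0 whenever a D0 library was left out. Bins of 50 kb gave 4870 lower and 2551 higher, and bins of 500 kb 439 and 67, out of 38082 and 4809 fitted. With all 16 libraries in 1 edgeR fit the adjusted p was 0.127 for Npr1 and 0.117 for Uhrf1, and with at least 20 reads per site it was 0.0518 for Uhrf1. With promoters placed on the whole chromosome alone, 44 promoter tiles were higher of 3481. Of the list members not called in the main fit, 2 were called with the quasi-binomial model. At the sites of all 16 libraries with the 4 libraries in the fit, 1 was.

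The global difference of -3.00 points was -2.66 with at least 20 reads per site, -2.82 as all methylated reads over all reads, -3.24 at sites of all 16 libraries and -2.93 to -3.08 without 1 library. The share lower at 10 to 19 CpGs minus that at 1 to 4, 10.9 points, was 11.1 with CpGs listed in the 4 libraries and 14.9 among tiles at 60% or more in D0 cells. The share higher at 1 to 4 CpGs minus that at 20 to 39, 2.41 points, was 2.62 and, among tiles at 40% or less in D0 cells, 23.7. The share lower next to a CpG-rich tile minus that over 50 tiles away, 6.95 points, was 8.77 and 1.38 with CpG-rich at 10 and 40 CpGs and 7.91 among tiles with 5 to 9 CpGs. The share higher over 50 tiles away minus that next to a CpG-rich tile, 2.93 points, was 0.647 with CpG-rich at 10 CpGs and 4.07 among tiles with 5 to 9 CpGs. The cause of these shifts was not tested.

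Replicate numbers did not pair the libraries: the replicate differences of iPSC and D0 correlated at 0.000676 over tiles. With the replicate block, Gm15326 had adjusted p = 0.0573 and Cldn7 0.0378, and 9632 tiles were lower and 4892 higher, 229 and 78 promoter tiles, and 2896 and 1226 bins. The planned promoter windows and their alternatives were not run. With 2 libraries a group, the threshold on adjusted p limits what can be called, and the depth of D0 replicate 1 exceeds that of the others. CpGs and promoters outside MspI fragments were not measured.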
